A study of Mus musculus with 2 samples.

Results

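The G1-positioned G2/G2.M cells are neurosphere cells that the deposited annotation places at a cell-cycle position of at least 5.498 rad on a circle that ends at 2π, where G1/G0 cells lie, while the 5-stage assignment (SchwabeCC) calls them G2 or G2.M. They were 1042 of 12805 cells (8.14%), with 480 of 5748 cells in culture 1 (8.35%) and 562 of 7057 in culture 2 (7.96%). By stage, 538 were G2 (227 and 311 in the 2 cultures) and 504 were G2.M (253 and 251). Both the position and the stage were computed by the authors from the expression of these same cells, so everything below describes cells chosen by their expression and carries no test.

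The cells came from replicate cultures of 1 condition. Neurospheres are floating spheres of neural stem cells and their progeny, and these derived from wild-type C57BL/6 dorsal telencephalon at E14.5, kept in B27 and N2 medium with 10 ng/ml EGF and 10 ng/ml bFGF, and passaged before single-cell 3′ RNA-seq on the 10x Chromium platform. The labels name the v2 kit and the methods the v3 kit. Neither says whether the cultures came from separate embryos, and there is no treated or mutant group. The 2 libraries shared 48 cell barcodes, of which 11 belong to G1-positioned G2/G2.M cells. Median total UMIs over all cells were 19477 in culture 1 and 14637 in culture 2, with 3445 and 2833 genes per cell.

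A dividing cell copies its DNA in S phase, builds up mitotic mRNAs through G2 and M, and degrades many of them as it enters G1. The 5-stage assignment averages a gene list for each stage (G1.S, S, G2, G2.M and M.G1), standardizes each average over the cells, standardizes the resulting scores again within each cell, and names the stage with the highest score. The tricycle position instead is the angle of a cell after projection into a fixed plane of cell-cycle genes, in which the G2 and M peak lies near π. Radial glia are the dividing stem cells of the embryonic cortex, and the neurons they give rise to leave the cell cycle.

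Another 3 groups of cells served for comparison. The unstaged cells are the 2486 cells of the same arc with no 5-stage call (839 and 1647 in cultures 1 and 2). The near-π cells are the 879 cells also staged G2 or G2.M but positioned from 2.356 to 3.927 rad (419 and 460). The M.G1 cells of the arc number 1187 (446 and 741). The positions of cells staged G2 or G2.M formed separate peaks. Of 2189 such cells, 47.6% lay in the arc and 40.2% near π. In the arc were 55.1% of all G2 cells and 41.6% of all G2.M cells. These shares are to be read against all cells, whatever their stage. The arc held 4938 of 12805 cells, with 1789 of 5748 in culture 1 and 3149 of 7057 in culture 2. Of cells staged G2 or G2.M, it held 48.8% in culture 1 and 46.6% in culture 2. G1-positioned G2/G2.M cells made up 26.8% of the arc in culture 1 (95% exact binomial interval 24.8% to 28.9%, counting error only) and 17.8% in culture 2 (16.5% to 19.2%), so the intervals of the cultures did not overlap. The cells of culture 1 had a median position of 6.13 rad and those of culture 2 of 6.08 rad, and 584 of the 1042 lay at or above 6.09 rad. Just inside the bound, from 5.498 to 5.69 rad, were 22 such cells, with a mean level over the G2M genes of Seurat of 0.51, and just outside it, from 5.3 rad, were 13 with a mean of 0.60. Past the other end of the arc, from 0 to 0.785 rad, lay 78 cells staged G2 or G2.M with a mean level of 0.31.

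**Figure D1:**
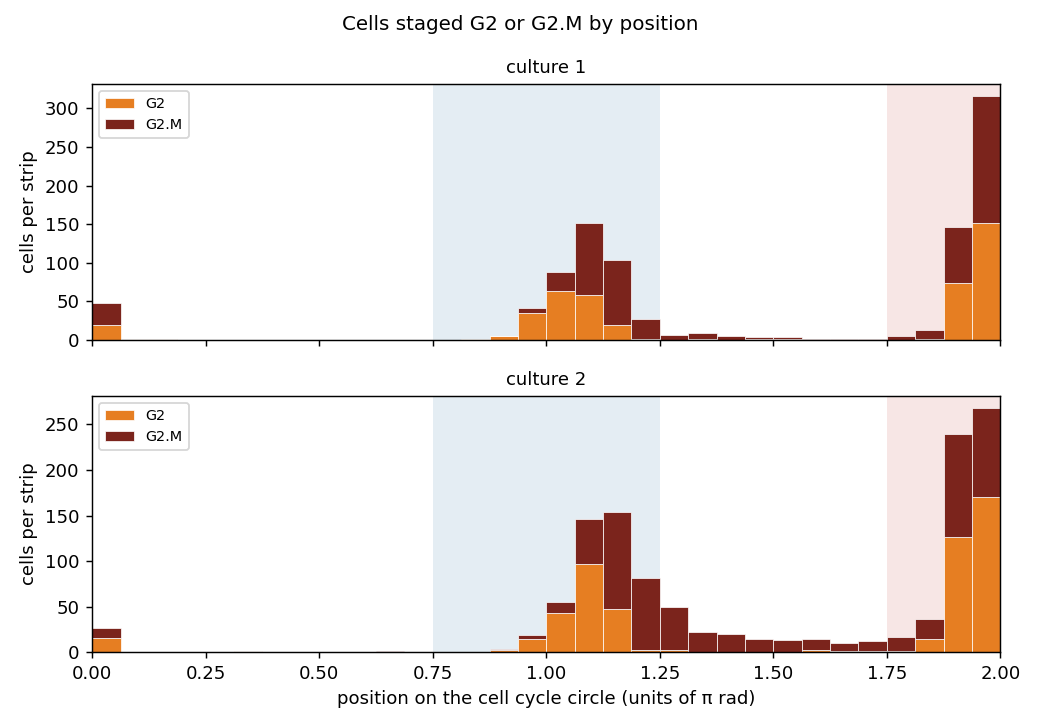
Number of cells staged G2 (orange) or G2.M (dark red) in strips of 0.196 rad along the cell-cycle position (x axis, units of π rad), culture 1 above and culture 2 below. The red band is the arc from 5.498 rad to 2π and the blue band is the near-π range. In the last strip before 2π fall 316 cells of culture 1 and 268 of culture 2.

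The other annotations of the same cells did not share the G2 call. Cyclone called all 1042 cells G1 (0 elsewhere, which allows a share of up to 0.288%). The Seurat stages were G1 for 1038 cells and G2M for 4, all in culture 2. Of the 2486 unstaged cells, 2473 were also G1 by Seurat (99.5%). These calls use the expression of the same cells, which were chosen at a G1 position, so they are not independent of the choice. Depth was close to that of the unstaged cells, with a median of 18382 UMIs in culture 1 and 13964 in culture 2 against 18572 and 13907. It was below that of the near-π cells (21177 and 17329 UMIs), by a log2 difference of medians of -0.20 and -0.31.

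On the stage scores, the G1-positioned G2/G2.M cells were low on every list. Scores were rebuilt here after the description in the methods, with a 5-stage gene list written from general knowledge, and gave the deposited stage in 78.2% of all cells and 63.2% of the G1-positioned G2/G2.M cells. The mean G2 score, in SD over the cells of a culture, was -0.88 ± 0.16 (SD over 480 cells) in culture 1 and -0.64 ± 0.20 (562 cells) in culture 2. In unstaged cells it was -0.90 and -0.70, and in near-π cells it was 1.44 and 1.76. The G2.M score was -0.83 and -0.65, against -0.89 and -0.70 in unstaged cells and 1.60 and 1.878 near π. All 5 scores lay below the culture mean in 99.6% of the cells of culture 1 and 97.3% of those of culture 2. The same held for 95.9% and 88.7% of unstaged cells, and for none of the near-π cells (0 of 419 and 0 of 460).

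Within a cell, the G2 and G2.M scores were on average the highest, as near π and in unstaged cells, while the order of the other lists differed. After the second standardization, within each cell, the mean G2 score was 0.65 in culture 1 and 0.67 in culture 2, next to 0.69 and 0.72 near π. The G2.M score was 0.85 and 0.70, next to 0.90 and 0.90. The G1-positioned and near-π classes were both chosen by these stages. The M.G1 score within a cell was -0.51 and -0.56, next to -0.06 and -0.10 near π. For G1.S it was -0.61 and -0.57, next to -1.12 and -1.12. In unstaged cells the within-cell means were also highest for G2 (0.35 and 0.17) and G2.M (0.39 and 0.19), with M.G1 at 0.11 and 0.01. G2 or G2.M was the highest of the 5 scores in 94.6% and 89.3% of G1-positioned G2/G2.M cells, against 46.0% and 35.1% of unstaged cells, which the assignment could leave without a stage by its other criteria. The other lists were lower than in unstaged cells: the mean M.G1 score was -1.20 and -1.0002 against -0.97 and -0.76, and the mean G1.S score -1.18 and -0.96 against -1.11 and -0.81. The M.G1 cells of the arc had M.G1 scores of -0.29 and 0.01. The deposited stage was chosen from scores of this kind, made with the authors' own list, so the order was fixed in part by the choice. With the list written here, 346 of the 1042 G1-positioned G2/G2.M cells (33.2%) were left without a stage.

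**Figure D2:**
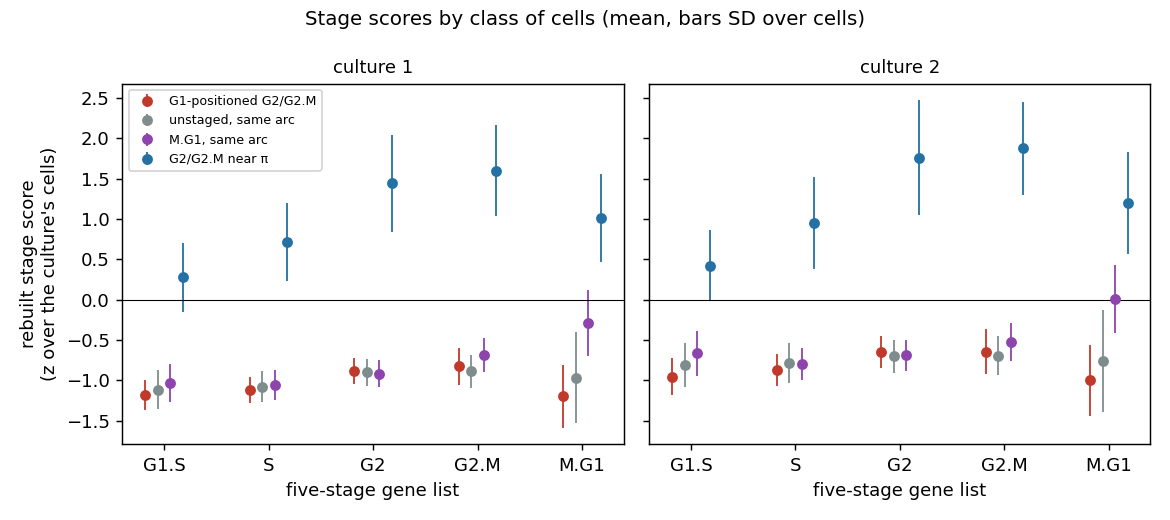
Mean rebuilt score (y axis, z over the cells of a culture) for each 5-stage list (x axis) in each class of cells, with bars of 1 SD over cells, culture 1 on the left and culture 2 on the right. G1-positioned G2/G2.M cells (red) lie between -1.20 and -0.64, with their lowest values on M.G1, and near-π cells (blue) lie above 0 on all lists.

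Against the near-π cells with the same stage, many mitotic transcripts were far lower. Expression is given as the mean over cells of log2(value + 1), where the value is the authors' depth-normalized signal, and a gene is called apart when its mean differs by at least 0.25 in the same direction in both cultures. Of 10666 genes, 507 were lower in the G1-positioned G2/G2.M cells (4.75% of genes) and 116 were higher (1.09%). At 0.1, 1238 were lower (11.6%) and 627 higher (5.88%). The position is itself made from cell-cycle genes, so this contrast was fixed in part by the choice of cells. Hmgb2, a chromatin protein, had a mean level of 0.82 in culture 1 and 1.04 in culture 2, against 4.60 and 4.56 near π. Pclaf, a PCNA-binding factor, was at 0.29 and 0.41 against 3.30 and 3.35. Ube2c, the ubiquitin-conjugating enzyme of the anaphase-promoting complex, was at 0.22 and 0.29 against 3.03 and 3.20. In each of these genes the levels of the 2 cultures were far closer to each other than to the other class.

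The other genes of the leading 12 were also lower in both cultures. The centromere proteins Cenpa and Cenpf differed by -2.81 and -2.57 in culture 1 and by -2.49 and -2.73 in culture 2. Top2a, which untangles sister chromatids, differed by -2.30 and -2.41, and Cdc20, the activator of the anaphase-promoting complex, by -2.50 and -2.18. Ccnb1, the mitotic cyclin, differed by -2.50 and -2.05, and Birc5, of the chromosomal passenger complex, by -2.52 and -2.46. Cks2, Cdca8 and Rrm2 complete the 12. Of the G2M genes of Seurat, 47 of 48 were lower, with a median difference of -1.04 and -0.91, and of its S genes 27 of 43, with -0.45 and -0.35. Over all genes the median difference was -0.00 in each culture.

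The promoters of 4 of these genes are shown because TTTGAA, the core of the cell-cycle homology region that the DREAM and MuvB complexes use to repress mitotic genes outside G2 and M, occurs in them near the start of transcription. Each is the stretch from 100 bases before to 30 bases after the RefSeq start (GRCm38.p6), 5′ to 3′ on the strand of the gene, with the motif on either strand (TTTGAA or TTCAAA) in capitals.
Hmgb2, chr8:57511743-57511872, plus strand: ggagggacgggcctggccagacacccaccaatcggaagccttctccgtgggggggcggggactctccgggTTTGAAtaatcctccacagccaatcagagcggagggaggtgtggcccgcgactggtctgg
Ube2c, chr2:164769829-164769958, plus strand: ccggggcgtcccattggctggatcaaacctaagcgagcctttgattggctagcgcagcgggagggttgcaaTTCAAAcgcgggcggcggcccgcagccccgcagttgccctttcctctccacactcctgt
Cenpa, chr5:30666786-30666915, plus strand: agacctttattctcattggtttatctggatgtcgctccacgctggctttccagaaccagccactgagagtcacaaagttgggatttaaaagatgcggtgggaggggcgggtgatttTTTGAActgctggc
Cenpf, chr1:189688057-189688186, minus strand: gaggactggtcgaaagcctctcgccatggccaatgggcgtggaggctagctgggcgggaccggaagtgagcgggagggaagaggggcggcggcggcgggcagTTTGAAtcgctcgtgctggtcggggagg
The first base of the motif lies 30 bases before the start in Hmgb2, 29 before in Ube2c, and at base 17 and base 3 of the transcript in Cenpa and Cenpf. Hmgb2 holds another copy 218 bases before the start. Of the 12 leading lower genes, Cdca8, Top2a and Cdc20 also hold the motif in their window of 250 bases before to 50 after the start, and Pclaf, Cks2, Birc5, Rrm2 and Ccnb1 do not. Windows were found for 416 of the 507 lower genes, and 27.6% of them held the motif, against 8.33% of 96 windows of higher genes. Of all 27025 genes with a RefSeq window, 18.1% held it. That last share includes genes outside the expression table, so it is not a matched background for either set. Of the 22 windows of genes lower by at least 1.5 in both cultures, 15 held it (68.2%). A match is a string of letters in a window and not a shown binding site.

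Detection showed the same levels as the means. Mki67, the proliferation antigen, had a value above 0 in 8.33% of G1-positioned G2/G2.M cells of culture 1 and 5.87% of culture 2, where unstaged cells of nearly equal depth had 7.15% and 5.59%, and near-π cells 95.0% and 93.7%. Top2a was detected in 16.7% and 10.5%, against 17.5% and 11.5% of unstaged and 89.5% and 83.3% of near-π cells. Ube2c, the most often detected of the G2M markers looked for, was found in 25.6% and 31.1%. Unstaged cells had it in 24.0% and 28.0% and near-π cells in 99.3% and 99.8%. The shares of these genes lie close to those of the unstaged cells and are not read as expression. The part of free RNA in any of them was not tested. Of the 48 G2M genes, a median of 10 and 9 were detected per cell, against 9 and 8 in unstaged cells and 39 and 36 near π.

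**Figure D3:**
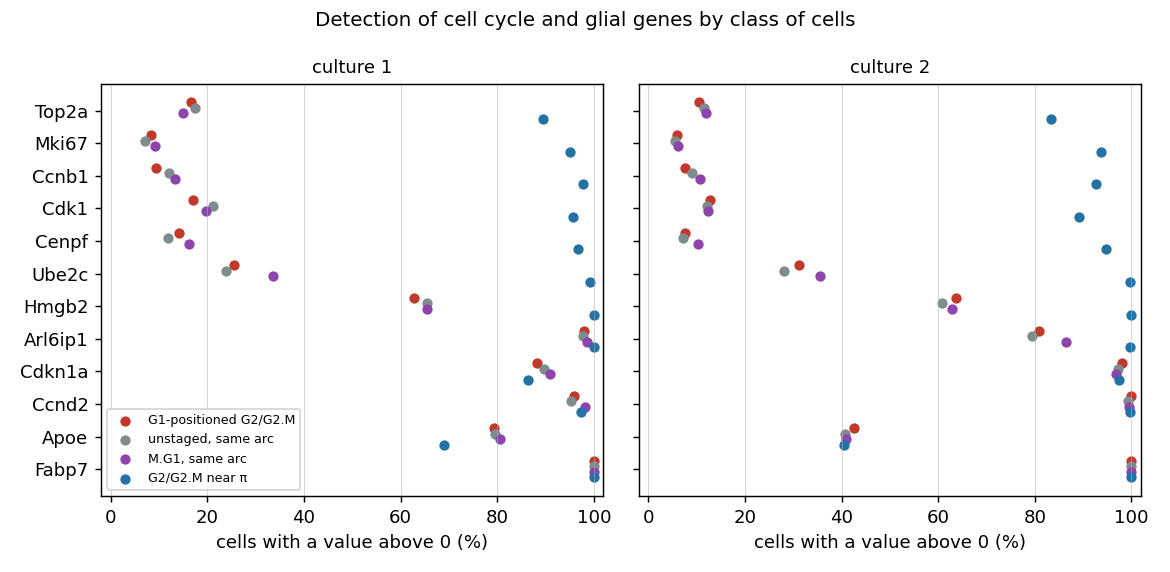
Percent of cells with a value above 0 (x axis) for 12 genes (y axis) in each class of cells, culture 1 on the left and culture 2 on the right. For Top2a, Mki67, Ccnb1, Cdk1, Cenpf and Ube2c the red points of the G1-positioned G2/G2.M cells lie beside the grey unstaged and purple M.G1 points and far from the blue near-π points, while Fabp7 is at or near 100% in all classes.

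The genes higher than near π were led by S100a11, a calcium-binding protein, with a mean level of 2.50 and 2.56, higher than near π by 1.02 and 0.68. Cd81, a tetraspanin, stood at 4.46 and 4.10 against 3.65 and 3.46, and Mxd4, a MAX partner that opposes MYC, at 1.13 and 1.27 against 0.44 and 0.63. Glial secreted products were among the 12, with Sparc higher by 0.67 and 0.55 and Apoe, the lipid carrier, by 0.76 and 0.37. The remaining names are Ndfip1, Map1b, Nt5c, Ccnd2, Rab6a, S100a10 and Igfbp3. Of 9 cyclin D genes and CDK inhibitors, 4 were higher and 1 was lower. Ccnd2, the D cyclin of cortical progenitors, was higher by 0.44 and 0.75, the p53 target and CDK inhibitor Cdkn1a by 0.52 and 0.51, and the INK4 inhibitors Cdkn2a and Cdkn2b by 0.28 and 0.37 in culture 1 and by 0.35 and 0.30 in culture 2. Cdkn2c, another INK4 inhibitor, was the lower one (-0.77 and -0.88). Median total UMIs also differed between these classes, as given above. With near-π cells weighted to the total UMIs of the G1-positioned cells, 166 genes were higher and 458 lower.

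Counts in other lists are read against the 1.09% of all genes that were higher than near π and the 4.75% that were lower. Of 19 lysosome and autophagy genes, 3 were higher (Ctsb, Npc2 and Gabarap), with a median difference of 0.22 in culture 1 and 0.11 in culture 2. Of 14 astroglial genes 3 were higher (Apoe, Cpe and Sparc), and of 7 tubulin-related genes 4 were lower, led by Stmn1, which destabilizes microtubules (-2.07 and -1.96), and Tubb5 (-1.55 and -1.31). None of 13 radial glia and neural progenitor genes, 12 neuronal genes or 13 oligodendrocyte lineage genes passed in both cultures, which at lists of this size is close to the share over all genes.

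Against the unstaged cells of the same arc, 0 of 10666 genes reached 0.25 in both cultures (0.0% higher and 0.0% lower). The spread of the differences over genes was an SD of 0.03 in each culture, against 0.21 and 0.19 for the contrast with near π. At a lower threshold of 0.1, 6 genes were higher (0.0563%) and 21 lower (0.197%). The cultures gave related but loosely matched differences, with a Pearson r across genes of 0.175, and of 0.147 outside the 5-stage list, where the same 10666 genes gave 0.921 for the contrast with near π. Genes are not independent, and both cultures were staged with the same lists, so the correlations are descriptions.

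The 6 higher genes were Arl6ip1, Apoe, Hist1h2bc, Npc2, Hp1bp3 and Mpc1. Arl6ip1, an endoplasmic reticulum-shaping protein whose mRNA peaks late in the cycle, had a mean of 2.46 in culture 1 and 1.99 in culture 2, against 2.22 and 1.89 in unstaged cells and 3.69 and 3.73 near π. The heterochromatin-binding protein Hp1bp3 was at 1.07 and 1.02 against 0.96 and 0.90. Both are in the G2 or G2.M list written here, and the list of the authors may differ from it in single genes. Apoe, in neither list, was higher by 0.13 and 0.13, Npc2, a lysosomal cholesterol transporter, by 0.10 and 0.12, and Mpc1, of the mitochondrial pyruvate carrier, by 0.10 and 0.10. In all 6 genes the difference was small beside their levels.

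The 21 lower genes included Lyar, Srsf7, Dkc1, Cbx3, Eif4e, Gpatch4, Ube2s, G3bp1, Ebna1bp2, Syncrip, Llph, Nolc1, Rpf2, Tomm20, Nop56, Bex2, Ncl, Nap1l1, Pfdn4 and Hspd1. Lyar, a nucleolar growth regulator, had a mean of 0.66 and 0.75 against 0.86 and 0.95 in unstaged cells and was -0.52 and -0.59 from M.G1 cells. Dkc1, the pseudouridine synthase of the nucleolus, was at 0.49 and 0.40 against 0.69 and 0.56 and against 1.06 and 0.94. Srsf7, a splicing factor, was at 1.59 and 1.43 against 1.70 and 1.70, and was -0.29 and -0.57 from M.G1 cells. For Lyar, Dkc1 and Srsf7 the order from low to high was G1-positioned G2/G2.M, unstaged, M.G1 in both cultures. Taken alone, the G2.M cells were lower than unstaged cells at 0.1 in only Dkc1 (-0.19 and -0.12) and Eif4e (-0.17 and -0.13) of the 21. In the G2 cells alone, Lyar was -0.24 and -0.34 and Srsf7 -0.22 and -0.41 from unstaged cells. Of the 21, 7 are in the M.G1 list and 1 in the G1.S list after the pruning of the staging. Another list, of 26 ribosome biogenesis genes, holds 4 of them (Ncl, Nop56, Dkc1 and Nolc1), and 1 of its genes (Dkc1) is in a stage list written here.

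Differences of the lists from unstaged cells were small. Of the 26 ribosome biogenesis genes, 23 were below the unstaged cells in both cultures and 0 above, with medians of -0.03 and -0.06. By comparison, 28.4% of all genes were below in both and 24.9% above. By stage, the mean level over the ribosome biogenesis genes was 0.946 and 0.852 in the G2 cells. In the G2.M cells it was 1.027 and 0.9674, close to the 1.034 and 0.9678 of unstaged cells, so the lower level rests on the G2 cells. Other lists varied. Of 22 cholesterol synthesis genes, 14 were below in both cultures and 1 above, and of 18 chaperone genes 10 below and 1 above. Of 14 astroglial genes, 8 were above in both and 1 below. Most genes went opposite ways in the oligodendrocyte lineage (11 of 13), radial glia and neural progenitor (9 of 13) and neuronal (9 of 12) lists. Among the pruned stage lists, 28 of 62 G2 genes were above in both cultures and 4 below, and 31 of 66 G2.M genes above and 8 below. By contrast 20 of 27 M.G1, 32 of 45 G1.S and 26 of 42 S genes were below in both. Both classes were chosen by stage calls that rest on scores of such lists, so these stage-list counts were fixed in part by the choice. The G2 and G2.M genes that contributed most to the higher score were Arl6ip1, Hp1bp3, Akirin2, Lmnb1, Rnps1, Rangap1, Cbx5, Sfpq, Thrap3 and Ckap2, and of these only Arl6ip1 and Hp1bp3 reached 0.1 in both cultures. Lmnb1, a nuclear lamin, was 0.11 and 0.06 above unstaged cells and -1.72 and -1.503 from near-π cells.

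**Figure D4:**
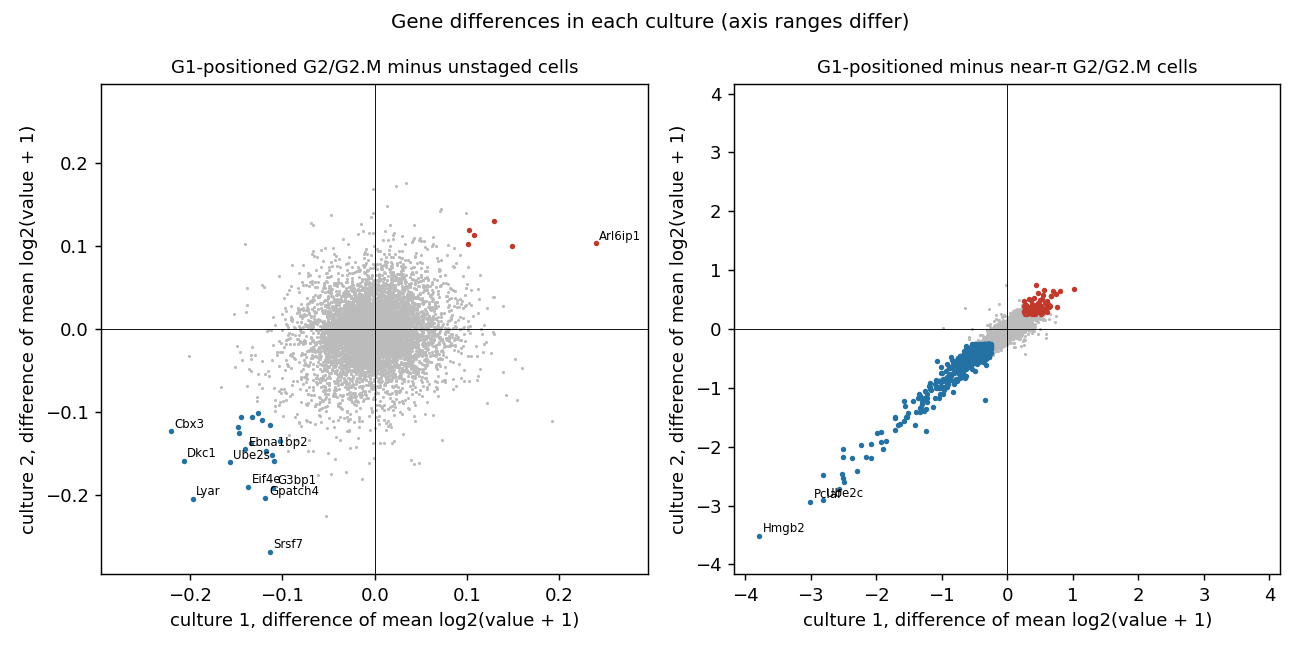
Difference of mean log2(value + 1) for each of 10666 genes in culture 1 (x axis) and culture 2 (y axis), against unstaged cells of the arc on the left and against near-π cells on the right, with different axis ranges. Coloured points pass 0.1 (left, 6 red higher and 21 blue lower) or 0.25 (right, 116 red and 507 blue) in both cultures. On the right the points follow the diagonal, from Hmgb2 at -3.79 and -3.52 up to S100a11 at 1.02 and 0.68.

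The M.G1 cells of the same arc differed more than the unstaged cells did. At 0.25 in both cultures 71 genes were lower in the G1-positioned G2/G2.M cells (0.666%) and 1, Mxd4, was higher (0.00938%), by 0.40 and 0.42. At 0.1, 404 genes were lower (3.79%) and 127 higher (1.19%), and of the 26 ribosome biogenesis genes 20 were lower and 0 higher, with medians of -0.19 and -0.22. Ncl, nucleolin, was at 3.12 and 3.01 against 3.57 and 3.49, and Ube2s, of the anaphase-promoting complex, at 0.42 and 0.83 against 0.93 and 1.52. Of 18 chaperone genes 9 were lower at 0.1, among them Hspd1 (-0.40 and -0.35), and of 22 cholesterol synthesis genes 7 were lower, among them Sqle (-0.29 and -0.21). Of 15 p53 targets 4 were higher, among them Cdkn1a (0.24 and 0.36) and Ccng1 (0.19 and 0.37). The M.G1 call rests on a high M.G1 score, so the M.G1 list genes in this contrast were used by the choice.

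Within the G1-positioned cells, those staged G2 and those staged G2.M differed from each other more than the whole class differed from unstaged cells. The groups were split by their stage scores and the whole class averages them, so this was fixed in part by the choice of cells. Total UMIs were close, with medians of 18295 and 13950 in G2 and 18545 and 13988 in G2.M cells. At 0.25 in both cultures 5 genes were higher in G2 than in G2.M cells (0.0469%) and 16 lower (0.15%), and at 0.1 the counts were 81 (0.759%) and 123 (1.15%). Cdkn1a, the CDK inhibitor p21, led the higher genes at 3.38 and 3.48 in G2 cells against 2.78 and 3.12 in G2.M cells. Unstaged cells lay between or close to the lower value at 3.04 and 3.15. Cdkn1a is in no stage list written here, and the list of the authors may differ. Ccng1, another p53 target, was at 2.36 and 2.09 against 1.96 and 1.90, and Ccnd2 at 4.84 and 4.87 against 4.45 and 4.64. Psrc1, a spindle protein, and Cdkn2c, both in the G2 list, were higher by 0.44 and 0.30 in culture 1 and by 0.33 and 0.31 in culture 2. Other higher genes of the first 12 included Ddit4l, Rab3b, Fam110a, Bub3, Fzr1 and H2afj, and Fzr1 encodes the activator that keeps the anaphase-promoting complex active in G1.

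Of the 9 cyclin D genes and CDK inhibitors, 5 were higher at 0.1 in the G2 than in the G2.M cells and 0 were lower, with a median of 0.22 and 0.12. They were Cdkn1a, Ccnd2, Cdkn2c, Cdkn2a (0.22 and 0.12) and Cdkn2b (0.32 and 0.12), of which Cdkn2c is in a stage list written here. Of 15 p53 targets 2 were higher, Cdkn1a and Ccng1, and 0 lower. Of 110 G2 list genes 9 were higher and 1 lower, and of 135 G2.M list genes 0 were higher and 14 lower. The G2 and G2.M calls rest on scores of such lists, so list genes that differ between these groups were used by the choice. The 26 ribosome biogenesis genes had 3 lower (Ncl, Nop58 and Mybbp1a) and 0 higher.

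The genes higher in the G2.M cells were led by Arl6ip1, at 2.77 and 2.43 against 2.12 and 1.64 in G2 cells and 2.22 and 1.89 in unstaged cells. Stmn1, in no stage list written here, was at 2.34 and 2.32 against 1.74 and 1.81. The splicing factor Sfpq was at 2.19 and 2.26 against 1.79 and 1.59, and the histone chaperone Anp32e at 2.12 and 1.85 against 1.57 and 1.35. The chromatin protein Hmgb3 was at 1.44 and 1.56 against 0.98 and 1.05. For each of these genes the unstaged cells lay between the G2 and the G2.M cells. Anp32b, Pbk, Hmgb1, Srsf3, Thrap3, Ctcf and Rnps1 complete the first 12, and of the 12 all but Stmn1 and Hmgb1 are in the G2.M list. Pbk, a mitotic kinase, was detected in 33.2% and 37.1% of G2.M cells, against 12.3% and 8.68% of G2 cells, 23.5% and 20.8% of unstaged cells and 96.4% and 90.7% of near-π cells.

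Seen separately, each stage was set off from the unstaged cells by few genes. At 0.25 in both cultures, G2 cells had 1 higher gene (0.00938%), Cdkn1a, by 0.34 and 0.33, and G2.M cells had 4 (0.0375%), Arl6ip1 (0.55 and 0.54), Sfpq (0.29 and 0.43), Hmgb3 (0.29 and 0.34) and Anp32e (0.31 and 0.27). The 4 genes of the G2.M cells are in the G2.M list written here, so the choice of cells may have used them. Neither stage had a lower gene (0.0%). At 0.1, G2 cells had 50 higher (0.469%) and 92 lower genes (0.863%), and G2.M cells 27 (0.253%) and 15 (0.141%). Arl6ip1 itself was -0.10 and -0.25 from unstaged cells in the G2 cells, so its place among the 6 genes of the whole class rests on the G2.M cells.

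**Figure D5:**
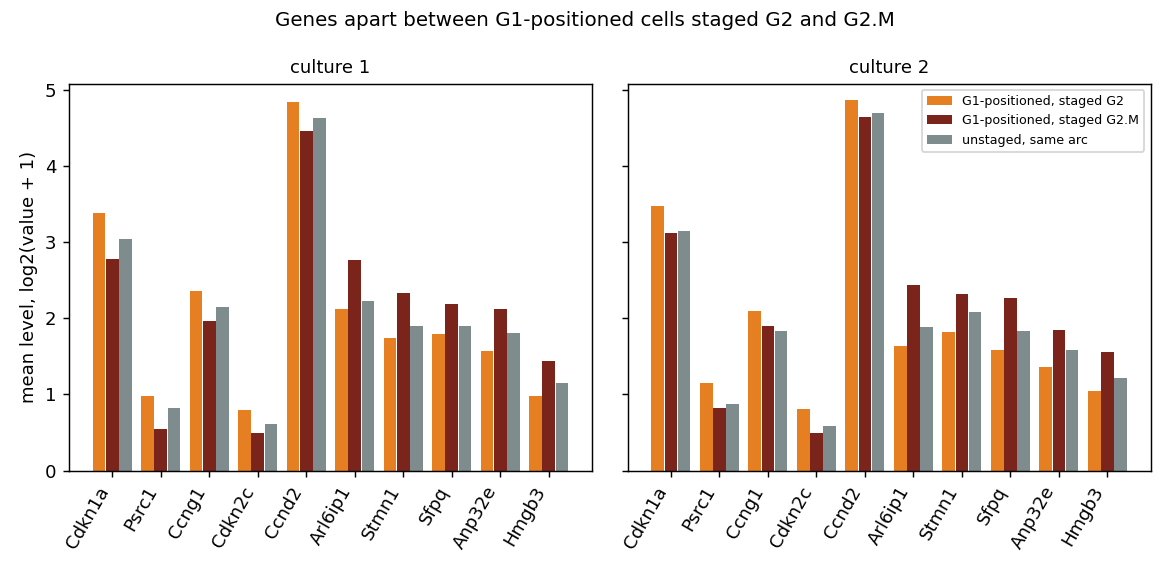
Mean level, log2(value + 1), of 10 genes (x axis) in G1-positioned cells staged G2 (orange) or G2.M (dark red) and in unstaged cells of the arc (grey), culture 1 on the left and culture 2 on the right. The orange bar is the highest of the 3 for the first 5 genes and the lowest for the last 5.

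The labelled tissue was checked on marker genes, by the percent of G1-positioned G2/G2.M cells of cultures 1 and 2 with a value above 0. Among the 8 radial glia and progenitor markers measured, Fabp7, a lipid-binding protein of radial glia, was found in 100% of cells of both cultures, the intermediate filament Vim in 99.0% and 99.8%, Nes, nestin, in 89.4% and 89.9%, and the glutamate transporter Slc1a3 in 89.4% and 92.2%. The transcription factors Sox9 (74.8% and 43.4%) and Hes1 (41.5% and 43.4%) were found in fewer cells, and Prom1, prominin, in 2.50% and 1.42%. Pax6, the dorsal cortical progenitor factor, was found in 15.2% and 16.5%, close to unstaged cells (15.5% and 16.5%) and below near-π cells (32.7% and 44.1%). Neuronal markers were split. Dcx was found in 6.25% and 1.42% and Gad1 in 4.17% and 0.712%, while Map2, a microtubule-associated protein, was found in 72.5% and 59.6% and Elavl3, an RNA-binding protein, in 27.5% and 43.6%. Unstaged cells had Map2 in 74.4% and 59.0% and Elavl3 in 30.5% and 37.1%. Of the oligodendrocyte lineage, Olig2, also a factor of ventral progenitors, was found in 96.9% and 88.3%, and the other 5 markers in 0.534% to 15.1%, with Sox10 at the lower bound in culture 2. Of the astroglial markers, Aldh1l1 was found in 44.4% and 33.8%, Gja1 in 44.2% and 16.2%, Slc1a2 in 44.0% and 24.7%, and S100b in 21.9% and 8.90%. Of the markers looked for, 8 of 10 progenitor, 4 of 10 neuronal, 6 of 9 oligodendrocyte, 4 of 7 astroglial, 1 of 6 endothelial and mural and 0 of 6 microglia and blood markers were in the table used here. Acta2, the mural one, was at 1.16 and 0.68 against 0.96 and 0.79 in unstaged cells. At 0.1 from unstaged cells, where 0.0563% of all genes were higher and 0.197% lower, the progenitor, neuronal and oligodendrocyte lists had 0 genes and the astroglial list 1, Apoe, and with so few genes passing, lists of this size would seldom hold one.

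Without the cells whose barcode is in both libraries, 0 genes stood apart from unstaged cells at 0.25 and 26 at 0.1 (4 higher and 22 lower), and 625 from near-π cells. This alternative was chosen after the data were seen.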

How the data were processed

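Single-cell RNA-seq of 2 replicate neurosphere cultures was used. By the methods and the submitters' processing notes, the authors quantified reads with alevin in Salmon 1.3.0 against GRCm38, kept spliced counts, and removed cells that were outliers in UMI depth, genes detected, mitochondrial reads or doublet score. No doublet caller was run here. The deposited expression values are a linear signal that was scaled for cell depth (median sum 11598 per cell in culture 1 and 11399 in culture 2), so neither counts nor thinned cells could be had. The authors deposited total UMIs, which add up the estimated counts of a cell. The deposited table of cells also holds the position and the stages. No per-sample column was left unmapped (0). A gene missing from the table is written as not in the table used here. Some genes that passed a threshold are counted but not reported here by name.

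Values were transformed as log2(value + 1), averaged over the cells of a class within each culture, and differences were called at 0.25 in the same direction in both cultures, with 0.1 as the lower threshold. Cells are not replicates, there is 1 condition and the cells were chosen by their own expression, so no test was run. The position and stage were used as deposited. The 5-stage scores were rebuilt on list genes correlated above 0.2 with the list mean, with a stage given where the top score beat an adjacent second by more than 0.3. The genes named are the 12 with the largest mean difference in each direction, the 10 G2 or G2.M genes with the largest part in the score difference, the largest of each list, markers of other cell types and at most 4 promoters. Members and lists were chosen with earlier results of these data known. Symbols were found for 10662 of 10666 genes. Promoters are the first RefSeq window listed for a gene, matched by symbol or older symbol. Windows were found for 79.1% of the table's genes, under the 80% needed, so a share over the whole table is not given. Python 3.11.15 with numpy 2.4.6, pandas 2.3.3 and scipy 1.17.1 was used. Alternatives were other thresholds, pseudocounts, filters, arcs and stages, weighting by total UMIs, and each culture left out.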

Additional observations from a re-analysis of the deposited data

How the results depend on the processing

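No paired analysis was possible because no result comes from a test. The classes of cells come from the same 2 cultures, and every difference was taken within a culture. Values rest on 2 cultures and the depth of each cell limits what low genes can show. Against unstaged cells, where 0 genes passed, a threshold of 0.1 gave 27, a pseudocount of 0.1 gave 10 (1 higher and 9 lower), log2 of the class mean plus 0.1 gave 30 (18 higher and 12 lower), G2 cells alone gave 1 and G2.M cells alone 4. At the threshold of 0.1, alternatives chosen after seeing the data gave 28 with weighting to equal total UMIs, 27 with genes detected in at least 10% of cells, 26 without shared barcodes, 10 with rebuilt stages and 32 with cells whose deposited and rebuilt stages were equal. Leaving out each culture gave 0 to 1. Against near-π cells, where 623 genes passed (116 higher), thresholds of 0.1 and 0.5 gave 1865 and 200, and a pseudocount of 0.1 gave 2005 (385 higher and 1620 lower). Log2 of the class mean plus 0.1 gave 2554, with 1183 higher and 1371 lower, so the share of higher genes moved with the scale, and weighting to equal total UMIs gave 624 with 166 higher. At 0.1, the alternatives added later gave 1859, 1797 and 1853. Culture 1 alone (without culture 2) gave 1031 and culture 2 alone 751, a range of 751 to 1031. The share of cells was 7.38% (945 cells) with rebuilt stages, 7.58% (970 cells) with an arc from 5.89 rad, and 7.96% to 8.35% with each culture left out. Differences in total UMIs and the G2 score moved by less than the spread between cultures with means in place of medians or with an unpruned list. The causes of these shifts were not tested.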
